A study of Xenopus tropicalis with 4 samples.

Results

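The first 12 megabases of chromosome 7 in the frog Xenopus tropicalis held 508 of the 66426 polyadenylation sites of the deposited table, in or outside 116 of its 15410 genes. A site belonged to this region when it lay on the chromosome that carries spock2 and its position was below 12000000, whatever its place relative to a gene. Sites were read with WTTS-seq, a method that reads where poly(A) RNA ends. Reads at a position are taken to count transcripts ending there. The 4 libraries came from whole-body RNA of 4 individual adult frogs, females 1 and 2 and males 1 and 2. Per the labels they differ in sex alone, and strain, age within adulthood, treatment and sex chromosome genotype are not given.

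Xenopus tropicalis has sex chromosomes that look alike under the microscope, and sex is decided by a locus near one end of chromosome 7. Forms of that locus called W, Z and Y segregate in the species, so that a female or a male can carry more than one combination of them. Recombination can be reduced around such a locus, and genes or repeats there can differ between the forms. The table also records where in a gene a transcript ends, since poly(A) tails can be added at several positions of one gene, including positions within introns. spock2, the proteoglycan gene that names the chromosome in the table, lay outside the region, between 34724182 and 34806225, with 0 and 0 reads in the females, against 100 and 27 in the males.

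Libraries held 1531471 to 2779715 reads. Whole bodies of the sexes differ in their tissues, and this was visible outside the region: 16 of 16 tested oocyte and egg marker genes were higher in females, with summed levels of 4650 and 4125 CPM (reads per 1000000 of the effective library size) in females, against 25.3 and 28.1 in males. All 11 tested skeletal muscle markers were higher in males, with 9939 and 5134 CPM summed in females, against 136292 and 80175 in males. Higher in males were also 7 of 8 tested nervous system markers, 5 of 6 for liver and 2 of 4 for blood. Of 6 tested for sex determination and gonad, 5 were higher in males and 1 in females. Testis and sperm markers were mixed, with 1 of 4 tested higher in females and 2 in males. Their summed CPM were 479 and 328 in females, against 91.6 and 78.7 in males. No marker gene lay in the region, and the part of tissue content in the results below was not tested. In such samples fewer cells of a type and less RNA per cell cannot be told apart.

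Sites were spread unevenly along the region, 261 on the plus strand and 247 on the minus strand. In windows of 1 megabase numbered from the start of the chromosome, windows 1, 2, 5, 8 and 10 held 78, 82, 69, 63 and 75 sites, whereas windows 3 and 4 held 4 each and window 7 held 1. The longest run without a site was 899434 bases, between 6394603 and 7294037, and the next were 851083 and 848860 bases long. By position in genes, 224 sites were exonic, 83 intronic, 64 overlapped an exon, 53 lay downstream of a gene and 68 belonged to no gene. Both sexes read 266 of the sites, 155 had reads in females only and 87 in males only. Reads at 111 sites came from 1 library alone. These counts were not compared with those of the whole table.

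Most reads of the region came from a few windows. Window 2, which holds the glycolysis genes tpi1 and gapdh and the chromatin remodeller gene chd4, took 56.5% and 48.2% of the region's reads in females 1 and 2 and 45.2% in male 2. In male 1 it took 14.9%, and window 10 took 73.6%, against 3.99% and 3.74% in females 1 and 2 and 10.8% in male 2. Window 12 held 5781 and 2201 reads in the females, against 420 and 209 in the males, and window 11 took 4.57% and 8.40% of the region's reads in females, against 8.83% and 26.7% in males. The reads of male 1 were thus distributed unlike those of the other 3 frogs. In CPM males and females did not overlap in the last 2 windows, nor in most of the others. Windows elsewhere were not compared, and over all tested genes 74.7% had no overlap of the sexes. Window 1 had 659 and 506 CPM in females, against 426 and 430 in males. Window 5 had 371 and 420, against 815 and 1777. In windows 4 and 7, with few reads, the sexes overlapped. In window 12, slc30a9 alone had 4181 and 902 reads in the females, against 276 and 81 in the males.

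**Figure D1:**
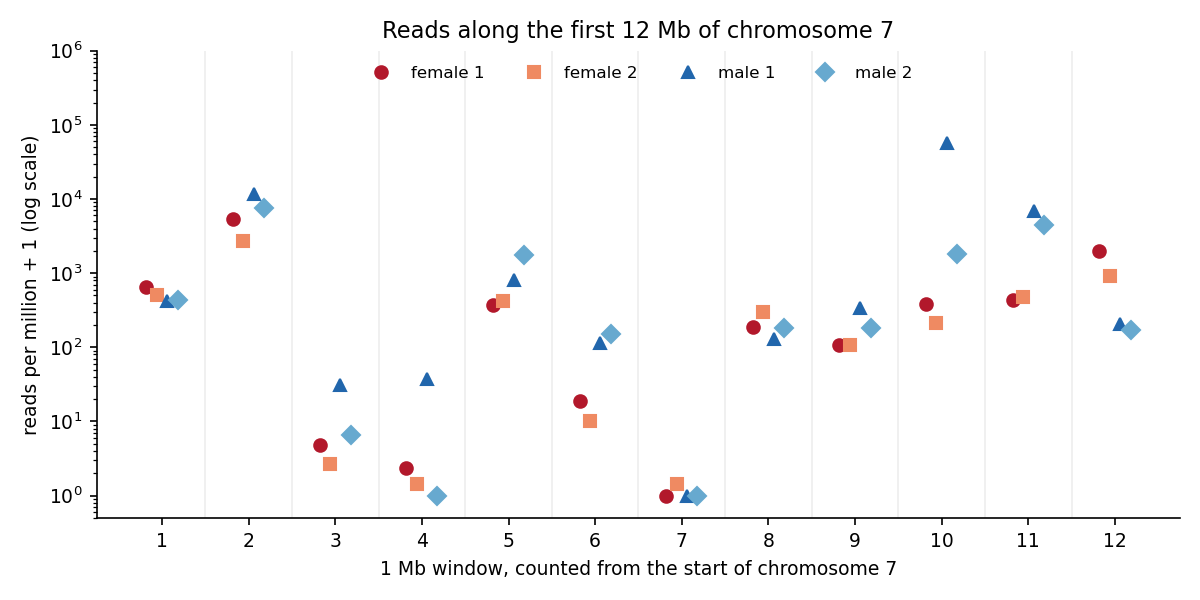
CPM (effective library size) plus 1 (log scale) in each 1 megabase window, 1 point per frog. In window 10 male 1 stands at 57249 CPM and male 2 at 1802, above the females at 383 and 213, and in window 12 both females (2004 and 908) are above both males (203 and 168).

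As a share of all reads of its library, the region took 1.16% in female 1, 0.774% in female 2, 5.79% in male 1 and 1.36% in male 2. Male 1 was far above the rest, and male 2 was close to female 1. The mean was 0.969% ± 0.276 (SD, n = 2) in females and 3.58% ± 3.14 (SD, n = 2) in males, a difference of 2.61 percentage points with a two-sided exact permutation p of 0.333, the smallest that 2 frogs against 2 can give. Without male 1 the difference was 0.390 points. Without a stretch of 26 sites described next, the means were 0.968% ± 0.275 and 1.43% ± 0.264 (SD, n = 2 each), a difference of 0.459 points.

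Most reads of male 1 in the region were on the plus strand between 9057033 and 9090084. These are the sites joined by gaps of at most 20 kilobases around the most read site of the region, and the stretch was singled out after its values were seen, so that its counts are a description. Its 26 sites held 25 and 9 reads in females 1 and 2, 116192 in male 1 and 1809 in male 2, which is 4.18% of all reads of male 1 and 0.118% of those of male 2. Male 1 exceeded male 2 by 38.6 times in CPM, so that the gap between the males was wide, and both males lay above both females. Of the 26 sites, 12 lay in LOC105947824 and 3 in LOC101731963, loci with no described function in the sources used here, and 11 had no gene.

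The sites without a gene formed 2 clusters that flank these loci. One cluster, 3 sites from 9057033 to 9057456, had 19 and 4 reads in the females, against 50667 and 727 in the males. The other, 8 sites from 9087742 to 9090084, had 4 and 4 reads in the females, against 62039 and 1030 in the males. Together they carried 97.0% of the stretch's reads in male 1 and 97.1% in male 2. The ratio of male 1 to male 2 in CPM was 41.9 and 36.2 in the clusters, 27.4 in LOC105947824 and 79.1 in LOC101731963. In the second cluster the most read site was 9089459 in male 1 (28988 reads, and 312 in male 2) and 9088693 in male 2.

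Single sites of the stretch carried most of these reads. The most used, at 9057456, had 19, 2, 41315 and 540 reads in females 1 and 2 and males 1 and 2, a log2 fold change of 11.39 ± 2.58 (SE, adjusted p = 0.0197). The site at 9088693, with 2, 0, 21538 and 444 reads, was 17595-fold higher in males by the ratio of pooled reads per pooled library, with a 95% counting interval of 4870 to 145296. That ratio rests mostly on male 1, at 10404 CPM, while male 2 had 356 CPM, against 0.693 and 0 in the females. All 11 tested sites of the stretch had more reads in both males than in either female. That order follows from how they were chosen. The stretch was placed around the most read site, and its sites had enough reads for the test only through the males. A count of 0 allows up to 3 reads, which is 0.000126% of the library of female 1 and 0.000169% of that of female 2.

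Both loci of the stretch followed this order. LOC105947824 (9065106 to 9066875) had 0 reads in both females, 1778 in male 1 and 39 in male 2, at least 907-fold higher over both males (adjusted p = 0.0112), of which male 1 had 1071 CPM and male 2 had 36.6. LOC101731963 (9074446 to 9076538) had 2 and 1 reads in the females, against 1708 and 13 in the males, a ratio of 1033 with a counting interval of 353 to 5016. Without male 1 the log2 fold change of LOC101731963 dropped from 9.60 to 4.17 and the call was lost (adjusted p = 0.0757), and it was also lost without female 1 (0.0658), whereas LOC105947824 kept its call in each leave-out, with a fitted log2 fold change of 9.17 without male 1 in place of 13.05. In the RefSeq gene table (UCB_Xtro_10.0) the protein-coding genes around LOC101731963 are reep3 and uncharacterised LOC loci, and how reads were divided among any similar copies is not known.

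**Figure D2:**
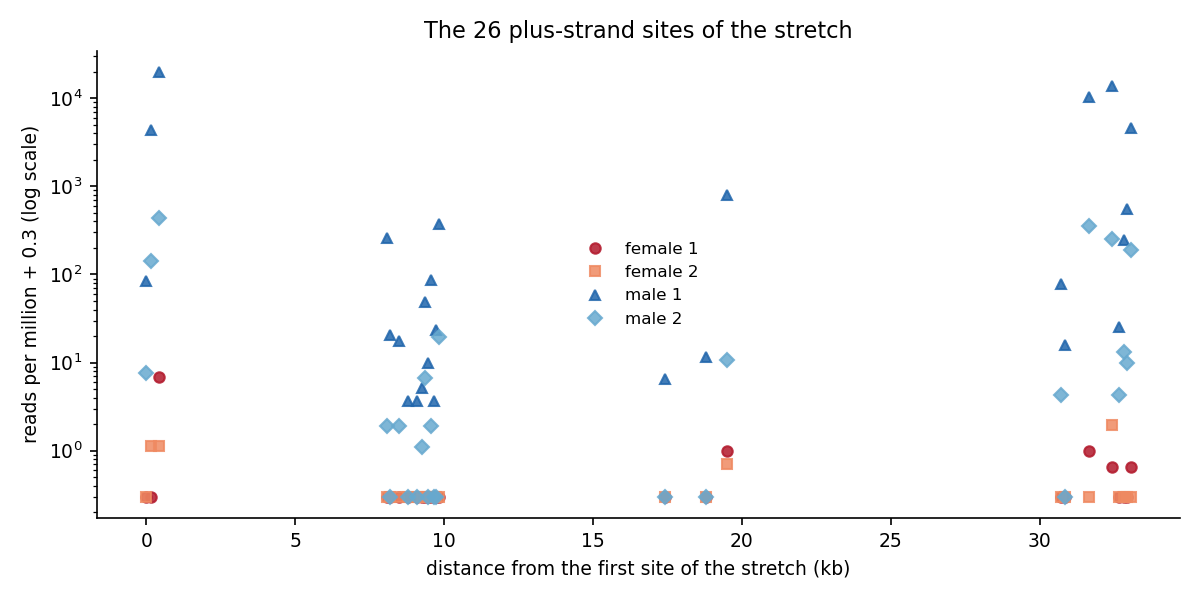
CPM (effective library size) plus 0.3 (log scale) at the 26 plus-strand sites, by distance in kilobases from the first site, 1 symbol per frog. The clusters without a gene, at the ends, reach 19958 CPM in male 1 and 434 in male 2 (site 9057456, where the females have 6.59 and 0.825).

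The gene order of the table was compared with RefSeq to see what this region holds. Of the 116 gene symbols 107 were in the RefSeq table, 103 of them on chromosome 7, and 90 of 102 consecutive pairs were in rising order. tmbim1, LOC101733844 and actb are on chromosome 9 there and slc30a9 is on chromosome 1, so their place here is uncertain. The table's region is not the whole end of the RefSeq chromosome: 65 protein-coding genes precede fam160b1, the first gene of the region, and of the 34 genes of that interval with a symbol in the table, 32 were on unplaced scaffolds and 0 in the region. Between gfra1 and foxj2, neighbours by position here, RefSeq has 111 protein-coding genes, of which 46 had a symbol in the table.

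Of the 116 genes, 82 had enough reads to be tested. Of these, 18 were higher in females, 23 were higher in males and 41 did not pass (edgeR quasi-likelihood test, Benjamini-Hochberg adjusted p under 0.05). Called genes were 50.0% of those tested, against 36.6% over all 10188 tested genes, with 22.0% higher in females (19.6% over all genes) and 28.0% higher in males (17.1%). The sexes did not overlap in 65 genes, or 79.3% (74.7% over all genes). The median log2 fold change, male over female, was 0.15 in the region and -0.35 over all genes.

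These shares lay within or near the range of comparable regions. In the first 12 megabases of the other 9 numbered chromosomes 22.7% to 53.3% of tested genes were called, 9.09% to 37.3% higher in females and 12.2% to 27.2% higher in males, and in the rest of chromosome 7 the share called was 39.0%. The male share of 28.0% was just above the highest of those 9 starts. Next to each other along the region, 58.0% of pairs of tested genes had the same direction, against 53.2% over all genes and 42.9% to 67.1% at the other starts.

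The direction of the male calls depended on the scaling. With library size alone the calls were 24 higher in females and 15 in males, so that males took 38.5% of calls in place of 56.1%, and the median log2 fold change over all genes moved from -0.35 to -1.25. The male calls lost there were those of c1r, gapdh, asah2, a1cf, prkg1, reep3, gabarapl1 and cuzd1. When 29 tested marker genes of muscle, liver, nerve and blood, whose median log2 fold change was 3.98, were set to 0, the median over all genes was -4.32 and the calls were 55 higher in females and 3 in males, or 5.17% in males. That somatic scaling lowers nearly every log2 fold change by about 3.98, and by less where a sex had 0 or few reads. Under it all 18 female calls were kept, and 16 of the 23 male calls changed sign. Which genes kept or changed their sign thus mostly restates the size of their first fold change. The male genes that kept their sign were c1s, ybx3, phyhipl, LOC100494440, actb, LOC105947824 and LOC101731963, the last 3 as calls. Without female 1 the calls were 6 and 8, without female 2 they were 12 and 7, and 6 of the 18 female and 4 of the 23 male genes kept their call in each of the 4 leave-outs.

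**Figure D3:**
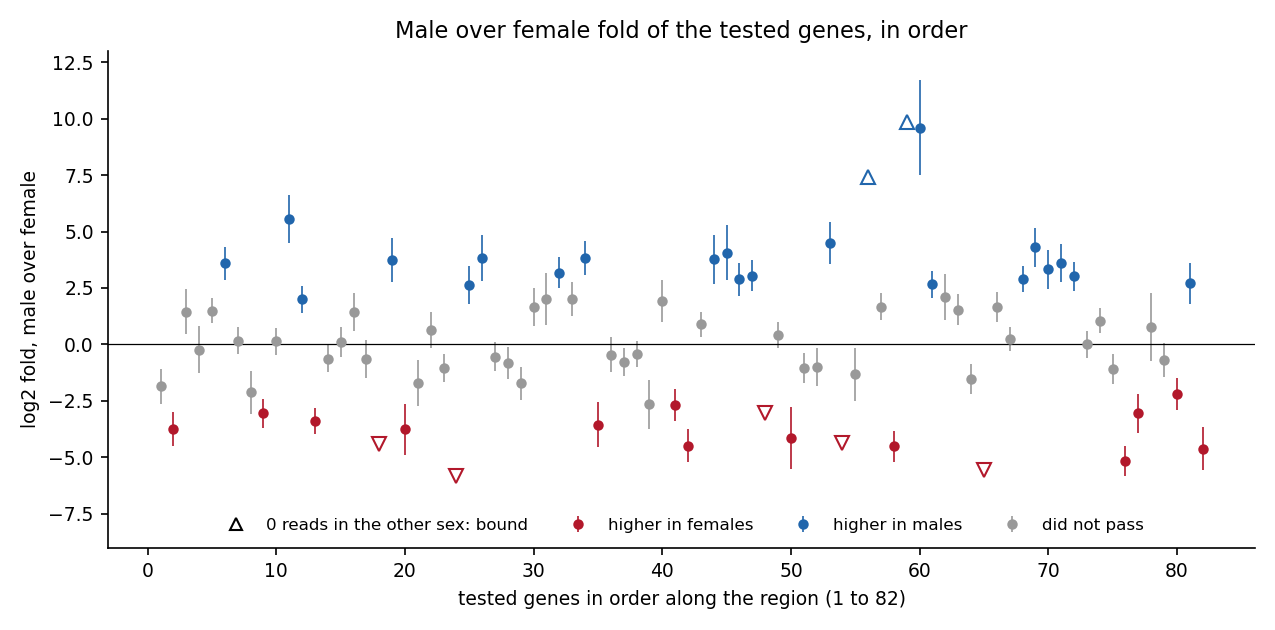
Log2 fold change, male over female, of the 82 tested genes in order along the region, with standard error; open triangles give the smallest size of the change where the other sex had 0 reads. Genes higher in females (18) and in males (23) occur toward both ends of the order, with runs of one kind, such as window 11 with 5 male calls and 0 female ones; under the somatic scaling 16 of the 23 male genes turn to lower in males.

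Genes are described by role, in groups formed after their values were seen, so that the counts are descriptions. The shares over all tested genes, for comparison, are 19.6% for females and 17.1% for males. The 3 tested genes put under cell division were called higher in females: cdk1, the kinase that drives entry into mitosis, ncapd2, a condensin subunit that compacts chromosomes, and cdca3, which promotes mitotic entry. This count depends on placement. tacc2, a centrosome gene called higher in males, could also be put here but was put under the cytoskeleton. LOC100498015, matched by its identifier to cep250, a centrosome gene by name, was not put here either. It had 59 and 65 reads in the females, against 116 and 79 in the males, and did not pass (edgeR adjusted p = 0.0654). cdk1 (8474858 to 8482090) had 87.8 and 67.8 CPM in females 1 and 2, against 3.01 and 3.75 in males 1 and 2, a log2 fold change of -4.51 ± 0.70 (SE, adjusted p = 0.00708). ncapd2 (1658929 to 1676027) had 30.4 and 92.4 CPM in females but 0 reads in either male, at least 55.8-fold higher in females (adjusted p = 0.00819). cdca3 (1180689 to 1182373) had 23.1 and 23.3 CPM and 0 in both males, at least 21.1-fold higher, and lost its call without female 1 (adjusted p = 0.0701). The sexes did not overlap in cdk1, ncapd2 or cdca3. That order follows from the filter, since these genes had enough reads for the test only through the females. rtkn2 (9742418 to 9789773) had the same shape with 30.4 and 73.0 CPM in females but 0 reads in either male, which is at least 47.0-fold higher (adjusted p = 0.00816). One opposite-strand site assigned to rtkn2 had 0, 0, 5 and 3 reads, and with it the log2 fold change was -4.14 (adjusted p = 0.0133).

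Genes with 0 reads in both males among the calls numbered 5, or 6.10% of tested genes, against 4.41% over all genes. They had enough reads for the test only through the females, so that their lack of overlap follows from the filter. Beside ncapd2, cdca3 and rtkn2 they were ipmk, an inositol polyphosphate kinase, and LOC105948002. ipmk (7299656 to 7302105) had 7.70 and 10.4 CPM in females, at least 8.21-fold higher, and its call was lost without female 1, female 2 or male 1 (adjusted p = 0.245, 0.214 and 0.0664). Called genes with 0 reads in both females numbered 2, or 2.44%, against 0.402% over all genes. They were LOC105947824, which lies in the stretch singled out after its values were seen, and the actb copy, whose place here is uncertain.

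Of 4 tested genes for rRNA and tRNA modification or ribosome assembly, 3 were higher in females (19.6% over all genes) and 0 in males, with a median log2 fold change of -3.57 (over all genes, -0.35). emg1 (988173 to 992132), an rRNA methyltransferase of small ribosomal subunit assembly, had 225 and 187 CPM in females, against 22.3 and 16.9 in males, a log2 fold change of -3.39 ± 0.57 (adjusted p = 0.00819). trub1 (27584 to 33151), a tRNA pseudouridine synthase, had 85.9 and 40.6 against 5.42 and 3.75 CPM, with a log2 fold change of -3.75 ± 0.75 (adjusted p = 0.0119, and 0.0882 without female 1). dnttip2 (7382322 to 7390236), a nucleolar protein gene, had 12.7 and 62.6 against 0 and 4.69 CPM (adjusted p = 0.0475), and its call was lost without female 1 (0.0596), without female 2 (0.400), with opposite-strand sites included (0.0509) or with intronic sites left out (0.0522). nop2, an rRNA methyltransferase of the large subunit, did not pass, with 461 and 298 CPM in females, 359 and 162 in males and overlap of the sexes (log2 fold change -0.54 ± 0.63, adjusted p = 0.515).

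Metabolic genes were mixed, with 3 of 13 tested higher in females, 3 higher in males and 7 not passing (median log2 fold change 0.77). oat.1 (11405633 to 11406932), which encodes the mitochondrial ornithine aminotransferase, had the smallest adjusted p of the genes higher in females. It had 469 and 435 CPM in females, against 15.7 and 9.37 in males, a log2 fold change of -5.15 ± 0.66 (adjusted p = 0.00595), with both females far above both males and the call kept in each leave-out. minpp1, an inositol phosphate phosphatase gene, had 35.4 and 57.0 CPM in females, against 8.43 and 5.62 in males (adjusted p = 0.0232, and 0.0702 and 0.136 without female 1 and female 2). Its most used site, with 83.2% of its reads, was intronic.

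Both glycolysis enzyme genes of window 2 were among the most read of the region. gapdh (1691598), glyceraldehyde 3-phosphate dehydrogenase, had 1128 and 571 CPM in females, against 6464 and 4039 in males, a log2 fold change of 2.63 ± 0.83 (adjusted p = 0.0404) that turned to -1.35 under somatic scaling and lost its call in each leave-out (adjusted p 0.0629 to 0.196). tpi1 (1146499 to 1146973), triose phosphate isomerase, had 2715 and 1108 CPM in females, against 6577 and 3864 in males. Its sexes did not overlap, but the difference did not pass (log2 fold change 1.45 ± 0.85, adjusted p = 0.203). gstk1 (10399483), a glutathione transferase, had 21.6 and 15.5 against 143 and 134 CPM, a log2 fold change of 2.90 ± 0.56 (adjusted p = 0.0108) that turned to -1.08 under somatic scaling and was not called without female 1 (0.0545) or female 2 (0.0738). asah2, a ceramidase, was uneven between males, with 15.7 and 172 CPM against 5.78 and 7.77 in females (adjusted p = 0.0302, 0.387 without male 2, 0.140 without female 1 and 0.0661 without female 2), and turned to -0.20 under somatic scaling.

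ybx3 (10401109 to 10418761), which encodes a cold shock domain protein that binds DNA and RNA, was the most read gene of the region in male 1. It had 302 and 329 CPM in females, against 7845 and 4686 in males, a log2 fold change of 4.31 ± 0.87 (adjusted p = 0.0119). The females were nearly equal and both males were more than 10 times above them. ybx3 took 2.83% and 5.53% of the region's reads in the females, against 8.09% and 24.0% in the males, and 99.5% of its reads were at 1 site, 10418761, which overlaps an exon. The call was kept in each leave-out, and under somatic scaling the log2 fold change was 0.33 (adjusted p = 0.660).

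Of 4 tested genes put under the cytoskeleton 3 were higher in males (17.1% over all genes), though acta2 and tacc2 turn negative under somatic scaling (median log2 fold change 3.42). acta2 (4483889 to 4487666), smooth muscle actin, had 93.2 and 60.9 CPM in females, against 675 and 1526 in males, a log2 fold change of 3.83 ± 0.74 (adjusted p = 0.0109) kept in each leave-out and moved to -0.14 by that scaling. tacc2 (10732266 to 10789917), whose protein is found at centrosomes and microtubules, had 9.24 and 6.91 against 50.0 and 81.5 CPM (adjusted p = 0.0145, 0.0641 without female 1 and 0.0815 without female 2). A single exonic site named actb (8131006), cytoplasmic actin, had 0 reads in both females and 222 and 82 in the males, at least 172-fold higher (adjusted p = 0.00579). This site had enough reads for the test only through the males. RefSeq has actb on chromosome 9, and how reads were divided among similar actin genes is not known. ank3, which anchors membrane proteins to the cytoskeleton, had 39 and 29 reads in females, against 74 and 47 in males, and did not pass (adjusted p = 0.0639).

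Among complement, protease and immune receptor genes 3 of 5 tested were higher in males (17.1% over all genes), of which c1r and htra1 turn negative under somatic scaling (median log2 fold change 2.01). LOC100492685, matched by its identifier to the receptor gene ltbr, could also be put here but was not. It did not pass (log2 fold change 2.01 ± 1.17, edgeR adjusted p = 0.201). c1s and c1r, neighbouring genes for the serine proteases of the first complement component, were both called. c1s (891906 to 892122) had 1 and 1 reads in the females, against 27 and 30 in the males, a ratio of 51.3 with a 95% counting interval of 13.6 to 434 (adjusted p = 0.0105, and 0.0672 without female 1). c1r (894745 to 930646) had 21.6 and 13.8 CPM in females, against 63.3 and 79.7 in males (adjusted p = 0.0340, and 0.109, 0.232 and 0.0698 without female 1, female 2 and male 2). htra1 (10621201 to 10622705), a secreted serine protease gene, had 2.70 and 1.73 against 27.1 and 29.1 CPM (adjusted p = 0.0168, 0.0765 without female 1 and 0.104 without female 2).

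Signalling, receptor and channel genes gave 1 call higher in females and 3 higher in males of 8 tested, the 3 male ones negative under somatic scaling (median log2 fold change 0.41). scnn1a (1843676 to 1867703), the alpha subunit of the epithelial sodium channel, had 10.4 and 4.75 CPM in females, against 81.9 and 57.2 in males, a log2 fold change of 3.18 ± 0.69 (adjusted p = 0.0145, and 0.0838 without female 2). prkg1, a cGMP-dependent protein kinase gene spread over 15 sites from 5080809 to 5543520, had 4.62 and 5.18 against 38.6 and 43.1 CPM (adjusted p = 0.0162, 0.0917 without female 1 and 0.0832 without female 2). With intronic sites left out prkg1 had too few reads for the test. A second prkg1 entry, on the minus strand, had 0, 1, 0 and 6 reads in females 1 and 2 and males 1 and 2 and was not tested. slc30a9, a zinc transporter gene that RefSeq has on chromosome 1, had 1611 and 389 CPM in females, against 166 and 75.9 in males. The females differed widely, and its call (log2 fold change -3.04 ± 0.87, adjusted p = 0.0302) was lost without female 1 (0.188) or male 2 (0.104). gnb3, a G protein beta subunit gene, had 2 and 2 reads in the females, against 16 and 15 in the males (adjusted p = 0.0231), and lost its call in each leave-out (0.0647 to 0.253).

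Transcription and chromatin genes gave 1 call of 7 tested (median log2 fold change 0.11). foxj2 (757249 to 757399), a forkhead transcription factor gene, had 11.9 and 3.45 CPM in females, against 98.8 and 89.0 in males, a log2 fold change of 3.59 ± 0.74 (adjusted p = 0.0128) that was lost without female 2 (0.0580) and turned to -0.38 under somatic scaling. chd4, the ATPase of the nucleosome remodelling and deacetylase complex, had 1207 and 457 CPM in females, against 581 and 353 in males, with the sexes overlapping (log2 fold change -0.83 ± 0.70, adjusted p = 0.372). jmjd1c, of the histone demethylase family, had 250.0 and 57.4 against 1157 and 179 CPM, a log2 fold change of 2.12 ± 1.02 that did not pass (adjusted p = 0.133), with male 1 high and male 2 within the female range.

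Protein turnover and membrane traffic genes gave 2 calls in each direction of 8 tested, with the 2 male ones negative under somatic scaling (median log2 fold change -0.87). necap1 (811798 to 815496), a clathrin adaptor partner, had 276 and 169 reads in females, against 23 and 8 in males (log2 fold change -3.04 ± 0.64, adjusted p = 0.0136, and 0.0735 without female 1). reep3 (9121776 to 9171699), near the stretch but on the minus strand, had 11.9 and 11.2 against 66.9 and 81.5 CPM. Its log2 fold change was 2.67 ± 0.60 (adjusted p = 0.0153), and its call was lost without female 1 or female 2 (log2 fold change 2.73 and 2.50). The males were close to each other in reep3, unlike in the stretch. Between the stretch and reep3 lies LOC101730731, also on the minus strand, with 31 reads in male 1 and 0 in male 2 and both females, too few for the test. stambpl1, a deubiquitinase gene next to acta2 on the other strand, was higher in females, with 37 and 29 reads against 2 and 1 (ratio 12.2, counting interval 4.0 to 60.7), and lost its call in each leave-out (0.0521 to 0.337).

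Genes in no role group numbered 30 tested, with 6 higher in females and 8 in males. c8orf76 (4860935 to 4862969) had 55.1 and 63.9 CPM in females, against 2.41 and 2.81 in males, a log2 fold change of -4.49 ± 0.73 (adjusted p = 0.00786) kept in each leave-out. LOC101732636, matched by its identifier to acrbp.3, which is named for an acrosin-binding protein in mammalian sperm, had 55.1 and 20.7 CPM in females, against 1.20 and 1.87 in males (adjusted p = 0.0130, and 0.167 without female 1). phyhipl (7794957 to 7823608) had 3 and 2 reads in the females, against 41 and 25 in the males (adjusted p = 0.0127, 0.0704 without female 1 and 0.0722 without female 2). LOC105948002, which lies within it on the other strand, had 86 and 28 reads in the females but 0 in either male, which is at least 20.6-fold higher (adjusted p = 0.0143, and 0.209 without female 1). Opposite-strand sites assigned to phyhipl had 76, 43, 11 and 7 reads, and with them its difference did not pass (log2 fold change 0.28, adjusted p = 0.741).

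**Figure D4:**
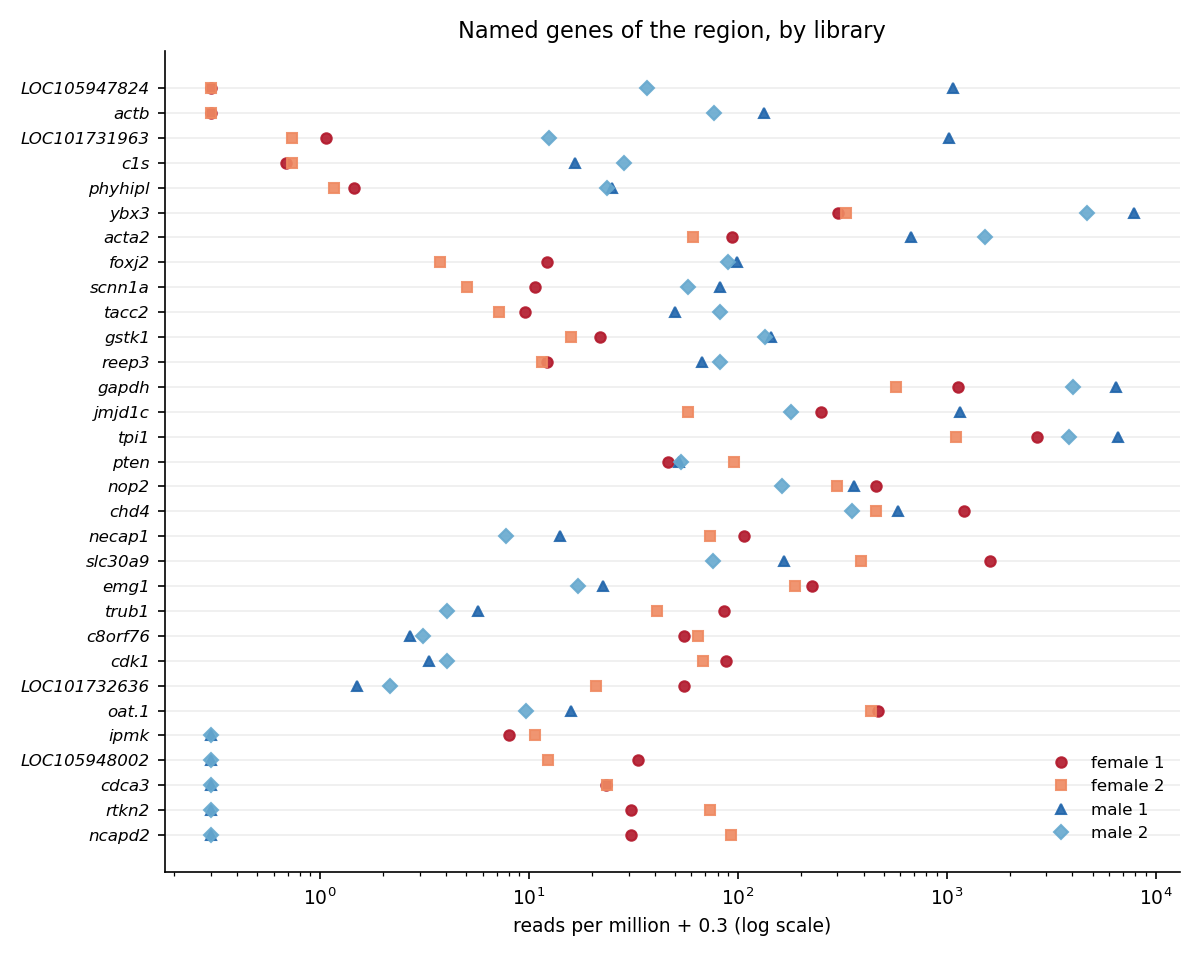
CPM (effective library size) plus 0.3 (log scale) of the named genes, 1 point per frog, ordered by log2 fold change from higher in males (top) to higher in females (bottom). The sexes are apart in every called gene, most of which were named by a rule that asks for no overlap. They overlap in chd4, nop2, pten and jmjd1c. Under somatic scaling foxj2, gapdh, scnn1a, acta2, reep3, gstk1, tacc2, tpi1 and jmjd1c turn negative.

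The 41 genes that did not pass had log2 fold changes from -2.65 to 2.12, with a median standard error of 0.70. Of them, 24 had no overlap of the sexes, which was common in these data (74.7% of all tested genes, called or not). The 34 genes with too few reads for the test held 739 reads in all. LOC108648167 had the most, 160, of which 159 were in male 1. The limit of 12 megabases falls among genes of both kinds: just inside are c7h10orf88 (higher in females), cuzd1 (higher in males) and LOC101732636 (higher in females), and just outside zranb1 and fam175b, which did not pass, and mettl10, with 162 and 86 reads in females, against 2 and 0 in males.

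Tested one by one, 133 of the 508 sites had enough reads, and 22 were higher in females (16.5%, against 19.9% over all sites) and 36 in males (27.1%, against 16.2%). In the first 12 megabases of the other 9 numbered chromosomes the female share was 9.38% to 31.3% and the male share 10.9% to 30.6%, so both shares lay within that range. Sites with a gene gave 22 and 23 of 116 tested (20.9% and 14.8% over all such sites). Of 17 tested sites without a gene 13 were higher in males (30.8% over all such sites, 15.4% to 68.4% at the other starts) and 0 in females (9.79%, 0% to 29.2%), with 14 and 0 at an unadjusted p under 0.05, and DESeq2 called 13 and 0. Without male 1, 9 of 16 were higher in males, and under somatic scaling 9 of 17 were higher in males and 2 in females. In the authors' deposited table, sites of the region with an FDR-adjusted p under 0.05 numbered 52, or 10.2% against 6.47% of all sites, 23 higher in females and 29 in males. Of these, 40 were tested here and 40 were called in the same direction. Both tests used the same counts, so the shared direction is not independent evidence.

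The stretch, singled out after its values were seen, gave 8 of the tested sites without a gene, all higher in males. Outside the stretch 57 sites without a gene held 205 and 131 reads in the females, against 1045 and 337 in the males, and 5 of 9 tested were higher in males. The site at 10356232 on the plus strand had 0 and 0 reads in the females, against 248 and 25 in the males, at least 124-fold higher (adjusted p = 0.0197). It had enough reads for the test only through the males. On the minus strand, sites at 4680862 and 4681352 lay 4080 and 3590 bases beyond the last site of pten, with 12, 11, 62 and 31 reads and 24, 15, 81 and 48 reads in females 1 and 2 and males 1 and 2. Both were higher in males (adjusted p = 0.0439 and 0.0401), that at 4681352 turning to a log2 fold change of -1.56 under somatic scaling and losing its call in each leave-out (0.0615 to 0.332). Sites at 8021424 (9, 1, 41 and 40 reads) and 8374525 (9, 1, 137 and 9 reads) were also called. Under somatic scaling 9 of the 17 tested sites without a gene were higher in males, in place of 13. Male calls other than that at 4681352 were thus lost too. Whether those at 4680862, 8021424 and 8374525 were among them is not given here, so they should not be read as firmer. Of the 68 sites without a gene in the region 12 lay within 5000 bases of a gene's site on the same strand, and 19 had at most 5 reads.

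The series title asks how the use of alternative sites differs between the sexes. Of 24 genes with at least 2 tested sites, 2 differed in site use, pten and jmjd1c, or 8.33%, against 15.3% of 3503 genes. pten encodes the phosphatase that opposes phosphoinositide 3-kinase signalling. At the gene level the difference did not pass, with 46.2 and 95.4 CPM in females, against 51.8 and 53.4 in males (log2 fold change -0.43 ± 0.58, adjusted p = 0.579). It was -2.02 with intronic sites left out (adjusted p = 0.0692) and -4.40 under somatic scaling, where it passed (adjusted p = 0.000563). Within the gene site use differed between the sexes (diffSpliceDGE, adjusted p = 0.00357), and did not pass with intronic sites left out (adjusted p = 0.854). Whether reads at intronic sites mark true transcript ends was not tested.

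The intronic pten site at 4722311 had 0, 0, 28 and 16 reads in females 1 and 2 and males 1 and 2, which is 0%, 0%, 43.1% and 44.4% of the reads at its tested sites. The neighbouring intronic site at 4722244 had 0, 2, 32 and 11 reads. The site at 4686142, which overlaps an exon, had 32, 16, 0 and 4 reads, or 38.1% and 13.8% in the females, against 0% and 11.1% in the males. The end downstream of the gene, at 4684942, had 52, 98, 5 and 5 reads, or 61.9% and 84.5% in the females, against 7.69% and 13.9% in the males. So among reads at the 4 tested sites the downstream share was higher in both females and the intronic shares in both males, with no overlap of the sexes at these 3 sites. The tested sites are 4 of the 17 sites of pten. Sites without a gene farther downstream on the same strand were not in this test. In females 1 and 2 and males 1 and 2, 4681352 had 24, 15, 81 and 48 reads and 4680862 had 12, 11, 62 and 31. Both were higher in males, whereas 4679461, with 27, 9, 3 and 18 reads, did not pass. Whether these sites belong to pten was not tested.

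jmjd1c passed with smaller shifts (adjusted p = 0.0294). Its main exonic site at 9407708 took 98.0% and 78.0% in the females, against 99.2% and 93.2% in the males, while an intronic site at 9253669 had 0, 0, 15 and 8 reads. arid5b, an AT-rich DNA-binding protein gene, did not pass (adjusted p = 0.0801), although its intronic site at 9890959 took 14.0% and 8.57% in females, against 63.0% and 60.7% in males. With intronic sites left out, 0 of 21 genes passed in the diffSpliceDGE test, 4 at an unadjusted p under 0.05, and 4.22% passed over all genes. Without female 2 or male 1 0 genes passed, 5 at an unadjusted p under 0.05 each, with adjusted p of 0.168 and 0.204 for pten and 0.390 and 0.806 for jmjd1c, and without female 1 pten alone passed (jmjd1c 0.0964). Over all genes 0.0206% passed without female 2, 0% without male 1 and 4.89% without female 1, so few genes passed anywhere with those libraries left out.

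**Figure D5:**
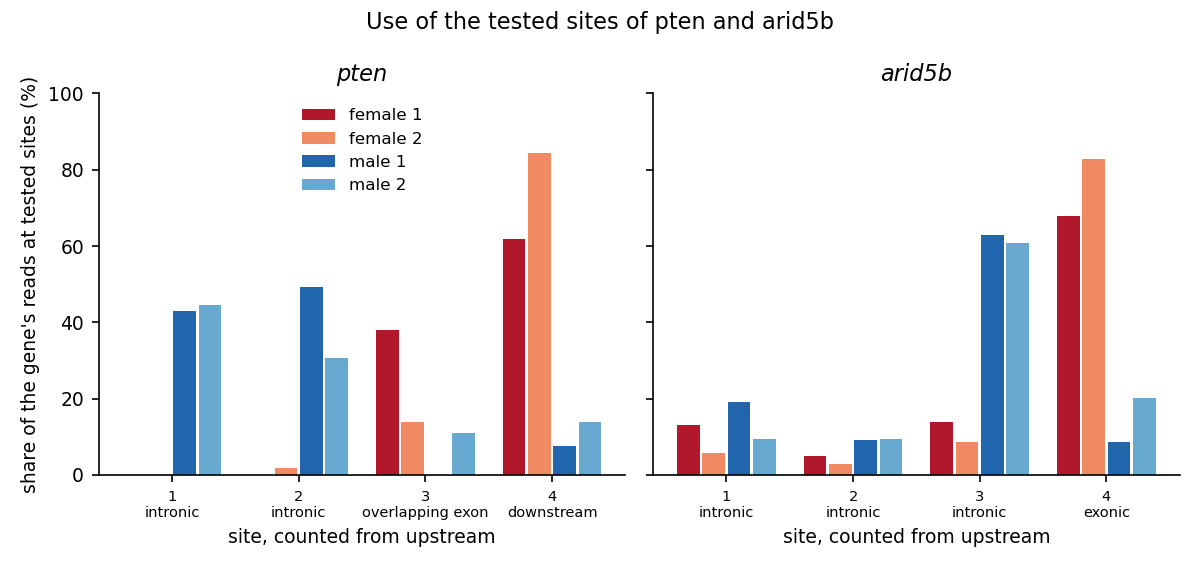
Share of a gene's reads at its tested sites (percent), for the 4 tested sites of pten and of arid5b counted from upstream, 1 bar per frog. In pten the 2 intronic sites carry most male reads and the downstream site most female reads; in arid5b, which did not pass, the intronic site at position 3 takes 63.0% and 60.7% in males and 14.0% and 8.57% in females.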

How the data were processed

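WTTS-seq libraries of 4 whole adult frogs were compared by sex, 2 against 2. Library steps, per the labels' protocols, were fragmentation, poly(A) selection, cDNA synthesis, a size selection and PCR. The submitters' processing notes name Bowtie2 2.2.3. The way reads were joined into sites is not stated, and the build is not given in the sources used here. Raw read counts per site were deposited by the authors. The deposited table also holds p-values of the authors' own test and a signed fold change, a score of unstated tool that is positive where females are higher, judged from the counts. Positions are as deposited, from 0 or from 1 (not stated). The table's line of column totals was left out.

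Counts of all 66426 sites, and gene sums over sites on the gene's own strand, were tested with edgeR 4.0.16 (R 4.3.3): TMM, filterByExpr (minimum count 10, minimum total 15), the sex effect by glmQLFTest, with p-values adjusted by Benjamini-Hochberg over the whole table and a threshold of 0.05. Site use was tested with diffSpliceDGE. Both were also run on simulated counts with a fixed spread, which checks the code and not the error rates in these frogs. CPM are reads per 1000000 of the TMM-scaled library, scaled separately for sites and genes. Fold changes give males over females on the log2 scale, and a standard error is their size over the root of the F statistic. Against 0 reads a fold is a lower bound, taken at 3 reads in the summed libraries of that sex, and with 1 to 3 reads a ratio with its 95% Clopper-Pearson interval is given. Intervals and floors cover counting error only, since no molecular identifiers are stated. P-values of the edgeR tests rest on 2 frogs per sex, with the spread of each gene or site moderated by that of the others in the fit. Alternatives were RLE scaling, library size alone, somatic scaling, other filters, DESeq2 1.42.0, a replicate block, leaving out each library, other strand and intron rules and a limit of 10 megabases.

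The members, the marker lists and the tests were chosen with earlier results of these data known, and genes were put into role groups after their values were seen. Named genes are the 10 of highest mean CPM and, in each direction, the 12 called genes of smallest adjusted p without overlap of the sexes, called genes with 0 reads in the other sex, the genes that passed for site use, and the 10 most read and up to 8 called sites without a gene. Other genes named were chosen after their values were seen. RefSeq names and gene order are from UCB_Xtro_10.0.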

Additional observations from a re-analysis of the deposited data

How the results depend on the processing

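With RLE scaling or DESeq2 all 41 gene calls of the region were kept. The 23 genes higher in males became 15 with library size alone and 3 under somatic scaling, and the 18 higher in females became 55 under somatic scaling. Leaving out 1 library gave 6 to 21 genes higher in females and 7 to 25 higher in males, where the lone frog of a sex was assumed to vary like the others. The 22 sites higher in females became 74 under somatic scaling, 64 with a filter of at least 1 CPM in 2 libraries and 12 to 20 without 1 library. The 36 sites higher in males became 16, 55 and 22 to 48, and 25 without the stretch, an alternative chosen after seeing the data. Genes that differed in site use numbered 6 with no filter, 11 with at least 1 CPM in 2 libraries, 0 with intronic sites left out and 0 to 3 without 1 library. The difference in read share was 0.390 to 4.83 points without 1 library and male higher throughout. Somatic scaling by design moves nearly all fold changes down together, and the cause of the other moves was not tested.

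Per the labels, frogs with the same replicate number share only that number, and whether they were processed together is not stated. Their deviations were correlated at 0.31 over 10188 genes. With a replicate block the calls were 21 genes higher in females and 27 higher in males, 25 and 42 sites, and 3 genes that differed in site use.

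Under somatic scaling the sign turned in foxj2 (-0.38), tpi1 (-2.53), gapdh (-1.35), scnn1a (-0.78), acta2 (-0.14), reep3 (-1.30), jmjd1c (-1.86), gstk1 (-1.08), tacc2 (-0.96) and the site at 4681352 (-1.56). Without 1 library chd4 ranged from -1.49 to 0.055 and pten from -0.84 to 0.056. Of 524 comparisons of the named results, 465 kept direction and side of the threshold, 41 lost the call with the same direction, 6 gained it and 12 changed sign. Depth limits low genes most: 34 of 116 genes and 375 of 508 sites had too few reads for a test.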

Other observations

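Genes that RefSeq has on chromosome 7 up to the last gene of the region, but that the deposited table has on unplaced scaffolds, numbered 81. Of these, 52 were tested, and 9 were higher in females and 12 in males, 40.4% in all, with a median log2 fold change of -0.31, against 36.6% and -0.35 over all genes. They are close by in the newer assembly and are not counted in the region. nanos1, a germ cell RNA-binding protein gene, was among them, with 378 and 230 reads in the females and 0 in both males, at least 111-fold higher in females (edgeR adjusted p = 0.00579), and was named after its values were seen.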
